A study of Homo sapiens with 6 samples.

Results

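The insulin-like growth factor (IGF) axis was described in HepG2 cells as 10 genes of the 34036 listed in the count table: the ligand gene IGF2, the receptor genes IGF1R and IGF2R, the binding protein genes IGFBP1 to IGFBP6, and IGFALS. The family was chosen by the siDGUOK against siControl contrast, in which IGFBP5 was seen to be induced, so the members' values in that contrast are a description and carry no test. All 10 members were found in the table by symbol, and all 10 passed the filter on low counts.

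HepG2 is a human line derived from a hepatocellular carcinoma, and the study asked what early loss of DGUOK, the mitochondrial deoxyguanosine kinase, does to such cells. The 3 siControl libraries came from cells that received a non-targeting siRNA, and the 3 siDGUOK libraries from cells that received a siGENOME pool of siRNAs against DGUOK. The line was maintained in EMEM with heat-inactivated FBS and penicillin-streptomycin. Both groups were transfected with 6 pmol of siRNA per well by Lipofectamine RNAiMAX, in medium that the study describes as free of antibiotics. They were harvested 48 h later. The labels name poly(A) RNA, but their protocol leaves the choice between poly(A) selection and rRNA depletion unfilled, so how the RNA was enriched is not certain. The treatment label names siControl for all 6 samples, so the groups were read from the titles and the names of the libraries. The knockdown is transient and in 1 cancer line, and the labels do not say whether the replicates were separate cultures, so p-values measure the spread between these libraries.

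Counts on genes totalled 19065684, 18915508 and 10527216 in siControl replicates 1, 2 and 3, and 18613138, 15978314 and 21334876 in siDGUOK replicates 1, 2 and 3. The siDGUOK replicate 1 library stood apart in breadth, with a count for 21057 genes against 16205 to 17583 in the other 5 libraries; without it 6 members were called, IGF2 joining the 5 given below, and IGFBP5 had a log2 fold change of 5.59. Levels are given as CPM, the count scaled to a common library size by the TMM method, and log2 fold changes are siDGUOK over siControl with a standard error (SE). A gene was called when edgeR's adjusted p was under 0.05 and the absolute log2 fold change was above 0.5.

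DGUOK (chr2:73926826-73958961, plus strand, GRCh38), the targeted gene, stood at 54.4, 53.1 and 48.2 CPM in siControl replicates 1, 2 and 3 and at 9.08, 10.5 and 6.72 CPM in siDGUOK replicates 1, 2 and 3. Each siDGUOK library was below each siControl library, as the titles label them, with a log2 fold change of −2.57 (SE 0.19).

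The label of hepatocyte origin was checked against 10 hepatocyte markers, all of which had counts in every library. Their summed level was 52936, 47177 and 46188 CPM in the siControl libraries and 27465, 23967 and 22542 CPM in the siDGUOK libraries. The most abundant, ALB, the gene of serum albumin, fell from 18791, 14273 and 15276 CPM to 6327, 5595 and 4280 CPM. Of the 10 markers, 8 were called lower in siDGUOK, led by FGB (log2 fold change −1.90), TTR (−1.61), ALB (−1.58), APOB (−1.46), AFP (−1.41) and APOA1 (−1.05). SERPINA1 (0.02), the gene of alpha-1 antitrypsin, was among those not called. In bulk RNA, fewer cells of a type and less RNA per cell cannot be told apart, here and for each gene below, and the part that the lower hepatocyte transcripts play in the IGF axis values was not tested.

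IGF1 and IGF2 are peptide hormones that act through the receptor tyrosine kinase IGF1R, whereas IGF2R removes IGF2 from the cell surface without signalling through a kinase. The binding proteins IGFBP1 to IGFBP6 hold IGFs in blood and tissue, extend their life and restrict or direct their access to receptors, and the acid-labile subunit encoded by IGFALS locks IGF with IGFBP3 or IGFBP5 into large circulating complexes. The liver is the main source of circulating IGF1, IGFALS and IGFBP1, and hepatocellular carcinomas often make fetal-type IGF2.

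Across the 10 members, 4 were called higher (IGFBP2, IGFBP4, IGFBP5 and IGFBP6) and 1 was called lower (IGF2R). Over all 14476 genes tested, 14.1% were called, 7.42% higher and 6.68% lower, and since the contrast chose the members nothing is read from this difference. The libraries of the groups did not overlap for 6 members, 4 with siDGUOK above and 2 with siDGUOK below; over all genes tested the share without overlap was 36.0%. The members' median log2 fold change was 0.04 against 0.02 over all genes tested. All 4 members that were called higher encode binding proteins, whereas neither the ligand nor a signalling receptor was called.

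**Figure D1:**
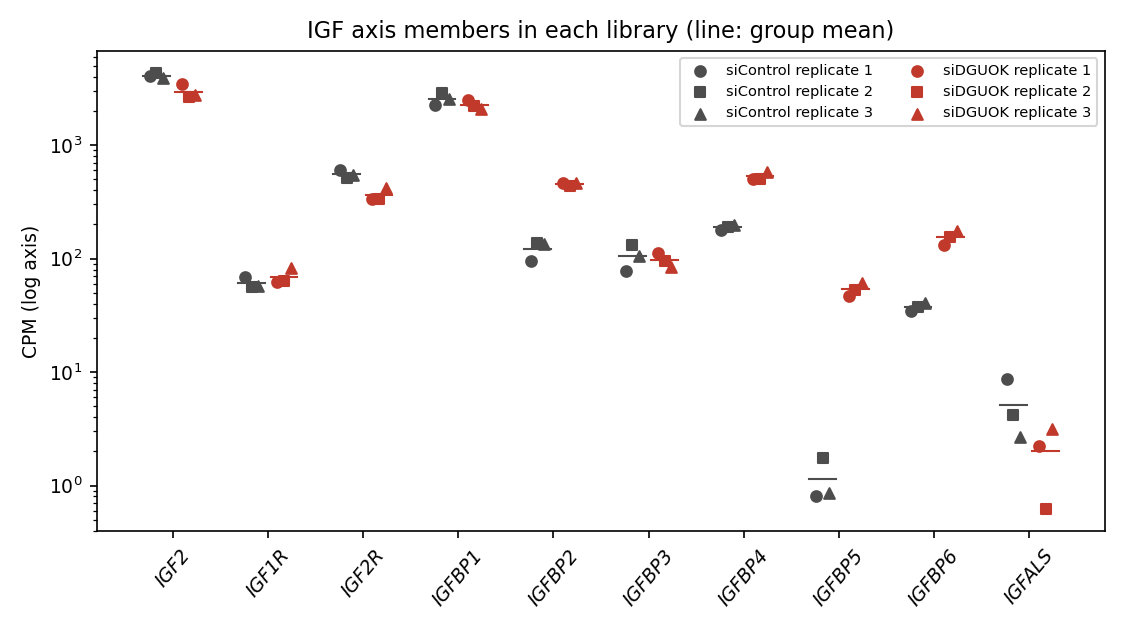
Level of each IGF axis member in CPM on a log axis, with 1 point for each of the 6 libraries and a line at each group mean. The siDGUOK points of IGFBP2, IGFBP4, IGFBP5 and IGFBP6 lie above all siControl points, those of IGF2 and IGF2R lie below, and the groups overlap for IGF1R, IGFBP1, IGFBP3 and IGFALS.

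IGF2 (chr11:2129112-2158391, minus strand), the fetal-type growth factor, was the only IGF ligand gene with counts in every library. Its level was 4039, 4363 and 3910 CPM in siControl replicates 1, 2 and 3 and 3464, 2633 and 2780 CPM in siDGUOK replicates 1, 2 and 3. Each siDGUOK library lay below each siControl library, and siDGUOK replicate 1 was the closest to them. On the log2 scale the difference was −0.47 (SE 0.09), just under the fold threshold, so IGF2 was not called. It was called without siControl replicate 3 and without siDGUOK replicate 1, and over the fits without 1 library the difference ran from −0.62 to −0.39. The count of IGF2 is uncertain, since 44.43% of its 7146 merged exon bases overlap exons of other genes, among them INS-IGF2 and the antisense gene IGF2-AS, and the counting ignored strand and left out reads on several genes.

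Genes beside IGF2 had values of their own. TH, the gene of tyrosine hydroxylase, the rate-limiting enzyme of catecholamine synthesis, lies 5.54 kb from the IGF2 gene on chromosome 11. It had 66, 30 and 18 counts in the siControl libraries and 599, 542 and 766 counts in the siDGUOK libraries, or means of 2.28 ± 1.08 and 33.7 ± 1.46 CPM (SD, n = 3). Every siDGUOK library was above every siControl library, and TH was called higher with a log2 fold change of 3.85 (SE 0.28, adjusted p = 1.58e-08 from edgeR). TH was on a list chosen with earlier results of these data known, so its p-value is a description. IGF2-AS was not called, at 0.29 (SE 0.36). H19, the imprinted RNA gene 125 kb away, had 0 counts in the 3 siControl libraries and 4, 3 and 0 counts in siDGUOK replicates 1, 2 and 3, which is too few to compare.

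IGF1R (chr15:98648539-98964530, plus strand), the signalling receptor for both IGFs, stood at 68.4, 56.3 and 57.4 CPM in siControl replicates 1, 2 and 3 and at 61.8, 63.2 and 82.4 CPM in siDGUOK replicates 1, 2 and 3. The groups overlapped, siDGUOK replicate 3 being the highest of the 6, and the log2 fold change was 0.19 (SE 0.14).

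IGF2R (chr6:159969082-160113507, plus strand), which takes up IGF2 for degradation and also sorts lysosomal enzymes, stood at 599, 517 and 550 CPM in the siControl libraries and at 338, 338 and 423 CPM in the siDGUOK libraries. All 3 siDGUOK values were below all 3 siControl values, with siDGUOK replicate 3 the nearest, and the log2 fold change of −0.60 (SE 0.09) was called lower. Without 1 library it stayed between −0.73 and −0.54, so the call was kept in each of these fits.

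IGFBP1 (chr7:45888360-45893660, plus strand), a hepatic binding protein gene that insulin normally represses, stood at 2262, 2892 and 2556 CPM in the siControl libraries and at 2501, 2237 and 2066 CPM in the siDGUOK libraries. The groups overlapped, and the difference of −0.18 (SE 0.09) on the log2 scale was not called. IGFBP3 (chr7:45912245-45921874, minus strand), the gene of the main carrier of IGFs in blood, lies on the opposite strand, its end 18.58 kb from that of IGFBP1. Its level ran from 77.7 to 131 CPM in siControl and from 84.8 to 111 CPM in siDGUOK, with overlap. The log2 fold change of IGFBP3 was −0.11 (SE 0.15) and took either sign when 1 library was left out, from −0.29 to 0.08.

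IGFBP5 (chr2:216672105-216695549, minus strand), whose protein binds IGFs and also the extracellular matrix, had 15, 33 and 9 counts in siControl replicates 1, 2 and 3 and 862, 868 and 1332 counts in siDGUOK replicates 1, 2 and 3. These counts correspond to 0.801, 1.76 and 0.858 CPM in siControl and 46.6, 53.4 and 61.3 CPM in siDGUOK. The lowest siDGUOK library was far above the highest siControl library, siControl replicate 2. Counting error alone, as exact 95% Poisson intervals, allows 1.21 to 2.47 CPM for siControl replicate 2, the highest control, and 43.5 to 49.8 CPM for siDGUOK replicate 1, the lowest of its group. The log2 fold change of 5.51 (SE 0.27) corresponds to a 45.5-fold higher level, and IGFBP5 was number 42 by log2 fold change among the 1074 genes called higher. Leaving out siControl replicate 2, which holds most of the control counts, gave 6.02, and the lowest of these fits gave 5.26. An antisense gene, DIRC3-AS1, covers 7.53% of the IGFBP5 exon bases and had 0 counts in all 6 libraries.

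IGFBP2 (chr2:216632828-216664436, plus strand) encodes a binding protein abundant in fetal liver and in many tumours, and stood at 95.9, 138 and 134 CPM in siControl replicates 1, 2 and 3 and at 468, 440 and 464 CPM in siDGUOK replicates 1, 2 and 3. The siDGUOK libraries were close together and all above the siControl libraries, among which replicate 1 was the lowest. The difference was 1.90 (SE 0.11) on the log2 scale, or 3.74-fold.

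IGFBP4 (chr17:40443450-40457725, plus strand), which encodes an inhibitory binding protein that the protease PAPPA cleaves, stood at 179, 191 and 197 CPM in the siControl libraries and at 505, 507 and 580 CPM in the siDGUOK libraries. Neither group spread widely, and no siDGUOK value came near a siControl value. IGFBP4 was 2.81-fold higher in siDGUOK, a log2 fold change of 1.49 (SE 0.08).

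IGFBP6 (chr12:53097436-53102345, plus strand), whose protein prefers IGF2 over IGF1, stood at 34.7, 37.4 and 40.3 CPM in siControl replicates 1, 2 and 3 and at 133, 155 and 175 CPM in siDGUOK replicates 1, 2 and 3. Again all siDGUOK libraries were above all siControl libraries. The level was 4.14-fold higher, with a log2 fold change of 2.05 (SE 0.12).

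IGFALS (chr16:1790413-1794971, minus strand), the gene of the acid-labile subunit, had 161, 78 and 28 counts in siControl and 41, 10 and 69 counts in siDGUOK. In CPM these were 8.60, 4.16 and 2.67 against 2.22, 0.616 and 3.17, so siDGUOK replicate 3 was above siControl replicate 3 and the groups overlapped. The log2 fold change was −1.36 with a wide SE of 0.62, as the libraries of each group were spread widely, it was not called, and it ran from −1.86 to −0.76 over the fits without 1 library, while DESeq2's shrinkage moved it to −0.42.

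**Figure D2:**
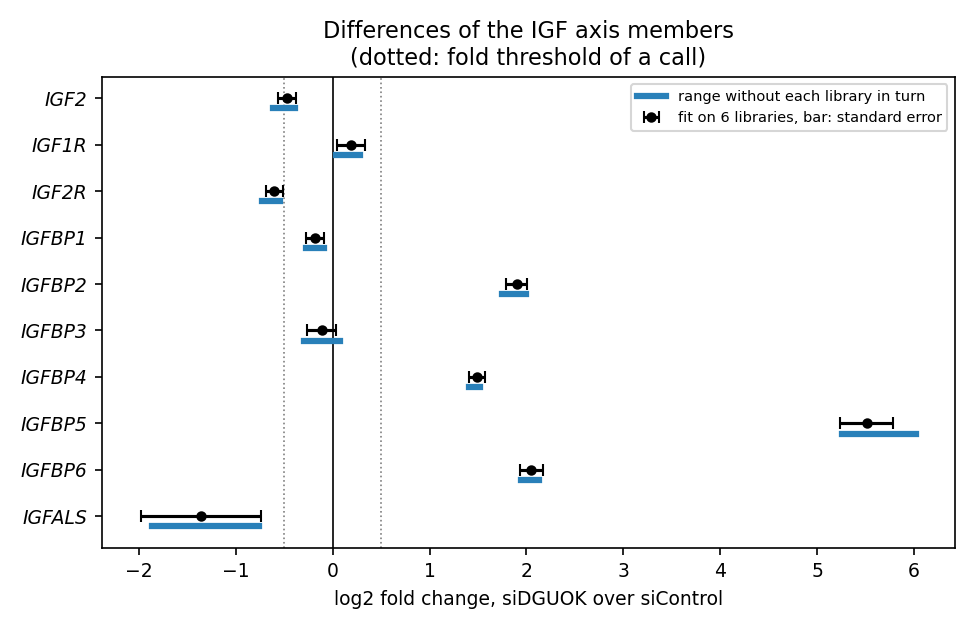
Log2 fold change of each member, siDGUOK over siControl, on the x axis. Points are the fit on 6 libraries with bars of 1 standard error, blue lines the range over the fits without each library in turn, and dotted lines the fold threshold of 0.5; IGFBP5 lies at 5.51, and the line of IGF2 crosses −0.5.

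The promoters of the 4 binding protein genes called higher are shown because these members moved together. RefSeq windows on GRCh38.p14, from 250 bases before to 50 bases after a start, were found for 8 of the 10 members, and not for IGF2 and IGFBP1. For IGFBP2, which has 3 windows, the window at the start of the Gencode canonical transcript is printed. Capitals mark matches on either strand to the TATA box form TATAAA, the form TATTTAA, the GC box GGGCGG bound by Sp1, the AP-1 site TGANTCA, the forkhead site GTAAACA and the E-box CACGTG. No motif matches overlap in the 4 windows. TATTTAA was added after the IGFBP5 sequence had been read. The windows lie at chr2:216695500-216695799 (minus strand) for IGFBP5, chr2:216633170-216633469 (plus strand) for IGFBP2, chr17:40443200-40443499 (plus strand) for IGFBP4 and chr12:53097417-53097716 (plus strand) for IGFBP6.
IGFBP5: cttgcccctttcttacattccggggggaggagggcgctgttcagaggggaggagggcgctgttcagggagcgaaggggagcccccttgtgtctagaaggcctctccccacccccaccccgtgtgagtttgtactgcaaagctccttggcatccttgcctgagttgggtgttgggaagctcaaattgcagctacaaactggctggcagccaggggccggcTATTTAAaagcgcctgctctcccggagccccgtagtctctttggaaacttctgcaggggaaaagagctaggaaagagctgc
IGFBP2: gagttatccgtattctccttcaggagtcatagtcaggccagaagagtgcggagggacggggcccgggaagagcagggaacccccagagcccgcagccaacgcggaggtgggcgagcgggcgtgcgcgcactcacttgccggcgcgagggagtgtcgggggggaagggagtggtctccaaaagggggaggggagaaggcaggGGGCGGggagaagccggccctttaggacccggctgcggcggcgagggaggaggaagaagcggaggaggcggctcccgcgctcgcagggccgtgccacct
IGFBP4: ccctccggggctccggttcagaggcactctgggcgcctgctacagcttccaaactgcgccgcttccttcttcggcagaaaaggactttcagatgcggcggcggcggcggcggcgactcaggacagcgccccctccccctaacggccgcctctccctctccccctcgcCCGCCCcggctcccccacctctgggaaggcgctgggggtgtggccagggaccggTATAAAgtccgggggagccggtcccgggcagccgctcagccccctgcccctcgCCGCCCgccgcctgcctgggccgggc
IGFBP6: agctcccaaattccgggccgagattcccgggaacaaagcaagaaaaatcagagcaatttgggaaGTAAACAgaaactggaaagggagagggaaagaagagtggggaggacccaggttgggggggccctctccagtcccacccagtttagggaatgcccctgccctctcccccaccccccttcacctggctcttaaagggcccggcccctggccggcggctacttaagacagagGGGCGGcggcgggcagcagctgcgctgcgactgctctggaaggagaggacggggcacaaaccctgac
The IGFBP5 window holds TATTTAA with its first base 31 bases before the start, and the IGFBP4 window holds TATAAA 29 bases before the start. Of all 35116 windows, 4.52% hold TATTTAA and 11.5% hold TATAAA. The GC box letters GGGCGG occur in the windows of IGFBP2, IGFBP4 and IGFBP6, not in that of IGFBP5, and in 45.0% of all windows. GTAAACA occurs in the IGFBP6 window, 186 bases before the start, and in 3.42% of all windows. The AP-1 letters TGANTCA, in 7.71% of all windows, and the E-box letters CACGTG, in 7.26%, occur in none of the 4. The IGFBP5 window had 59.0% G and C with 9 CpG, near the median of 58.7% and below the median of 14 CpG over all windows, and the IGFBP6 window was similar with 61.7% and 12 CpG, whereas those of IGFBP2 and IGFBP4 had 70.0% and 74.0% with 28 and 30 CpG. The 4 windows thus have no searched motif in common, and a match describes letters, not a site in use.

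IGFBP2 and IGFBP5 are neighbours on chromosome 2 and lie tail to tail, their ends 7.67 kb apart. The table lists 19 genes that reach within 500 kb of this pair, of which 8 were tested, 7 had no count in any library, and 2, IGFBP2 and IGFBP5 themselves, were called. XRCC5 (log2 fold change 0.05, SE 0.08), SMARCAL1 (−0.15, SE 0.18) and RPL37A (0.02, SE 0.07), the 3 tested protein-coding genes besides the pair, were not called. LINC01963 had 31, 11 and 7 counts in siControl and 34, 47 and 92 in siDGUOK, and its 1.61 (SE 0.80) was not called. The other binding protein pair, IGFBP1 and IGFBP3 on chromosome 7, was not called at either gene.

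**Figure D3:**
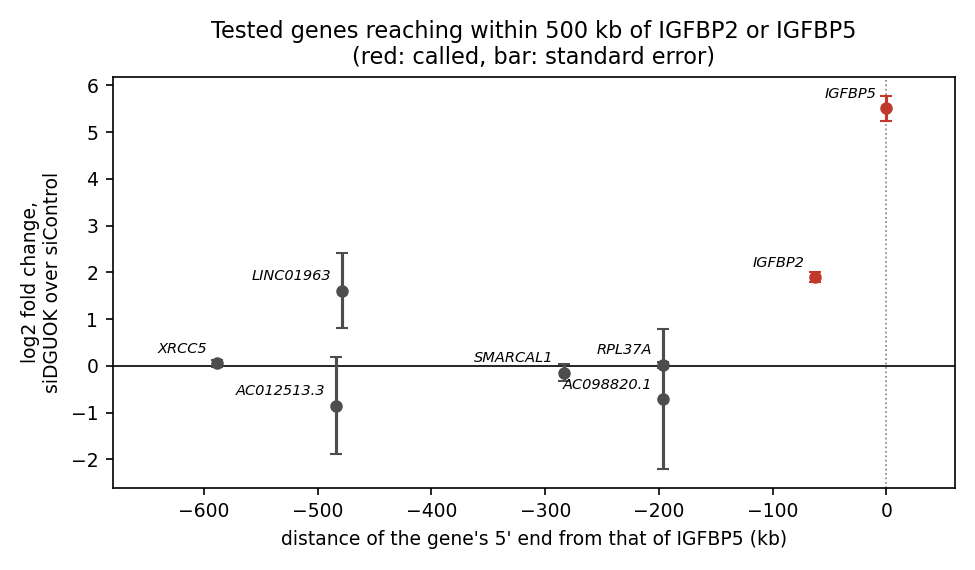
Log2 fold change, siDGUOK over siControl, of the 8 tested genes that reach within 500 kb of IGFBP2 or IGFBP5, against the distance in kb of each gene's 5′ end from that of IGFBP5. Bars are 1 standard error and called genes are red; IGFBP5 at 0 kb and IGFBP2 at −62.7 kb are the 2 called genes.

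Per length, as CPM per kb of merged exons, the levels of the members in siControl ran in the order IGFBP1, IGF2, IGFBP4, IGFBP6, IGFBP2, IGF2R, IGFBP3, IGF1R, IGFALS and IGFBP5. The mean level was 1565 ± 192 CPM per kb (SD, n = 3) for IGFBP1, 574 ± 32.6 for IGF2 and 85.8 ± 4.25 for IGFBP4. Next came IGFBP6, IGFBP2, IGF2R and IGFBP3, with means from 27.8 down to 23.0 CPM per kb. Each of these overlapped its neighbour in the order. The place of IGFBP2 depends on the length used, since per canonical transcript it was level with IGFBP4 and above IGFBP6 and IGFBP3. IGFBP5 was last at 0.176 ± 0.0830 CPM per kb, with 94.5% of the 14394 tested genes of known length above it.

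In siDGUOK, IGFBP1 at 1381 ± 134 CPM per kb (SD, n = 3) and IGF2 at 414 ± 62.0 CPM per kb still led. IGFBP4, IGFBP6 and IGFBP2 followed at 241 ± 19.5, 115 ± 15.5 and 96.5 ± 3.17 CPM per kb, with IGFBP3 and IGF2R below them, which overlapped. The order of these 3 depends on the length used, since the merged exons of IGFBP2 span 4742 bases and its canonical transcript 1414; per canonical transcript IGFBP2 was above both IGFBP4 and IGFBP6. IGFBP5 stood above IGF1R and IGFALS as number 8 of 10, at 8.31 ± 1.14 CPM per kb, with 31.0% of the tested genes above it; in CPM without division by length it was below IGF1R. So the member with the largest fold remained 1 of the lower levels of the axis, below every other binding protein gene in the same libraries.

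The makeup of the binding protein transcripts was described as each gene's share of the summed CPM per kb of IGFBP1 to IGFBP6. That sum was 1522, 1934 and 1728 CPM per kb in the siControl libraries and 1982, 1830 and 1777 CPM per kb in the siDGUOK libraries, which overlapped. With no division by length the groups did not overlap, at 2650, 3391 and 3035 CPM in siControl and 3765, 3488 and 3431 CPM in siDGUOK, and per canonical transcript they overlapped only just, the highest siControl library being at 2184 and the lowest siDGUOK library at 2183 CPM per kb. Per kb of merged exons, IGFBP1 held 90.5%, 91.1% and 90.1% of the sum in siControl and 76.9%, 74.5% and 70.8% in siDGUOK. Its share was thus lower in every siDGUOK library, although its own level overlapped between the groups.

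IGFBP4 went from 5.00% ± 0.450 to 13.0% ± 1.67 of the sum (SD, n = 3), IGFBP6 from 1.62% ± 0.161 to 6.21% ± 1.16, and IGFBP2 from 1.49% ± 0.154 to 5.19% ± 0.275. The share of IGFBP3 was 1.31% ± 0.183 and 1.13% ± 0.0894. IGFBP5 made up 0.00814%, 0.0141% and 0.00768% in siControl and 0.364%, 0.452% and 0.533% in siDGUOK. It therefore stayed the smallest share of the 6 in every library, while all 3 siDGUOK values were above all 3 siControl values. The shares depend on the length used. With no division by length the siDGUOK mean share of IGFBP5 was 1.52% instead of 0.449%, and that of IGFBP2 was 12.9%, between IGFBP4 at 14.9% and IGFBP6 at 4.37%. Per canonical transcript IGFBP2 came to 14.3% in siDGUOK, above IGFBP4 at 10.6% and IGFBP6 at 7.23%, and in siControl to 4.42% beside IGFBP4 at 4.43%. IGFBP5 was the smallest share in every library under all 3 scalings.

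Set against the ligand, the summed CPM per kb of IGFBP2 to IGFBP6 was 0.255, 0.282 and 0.313 times that of IGF2 in the siControl libraries and 0.945, 1.27 and 1.33 times in the siDGUOK libraries. The ratio was higher in every siDGUOK library. Its numerator went from 163 ± 15.9 to 481 ± 32.9 CPM per kb, while IGF2 was lower in every siDGUOK library but not called, except in 2 of the fits without 1 library. With IGFBP1 included, the ratio was 3.01 ± 0.271 in siControl and 4.54 ± 0.439 in siDGUOK (SD, n = 3). The size of both ratios, unlike their direction, depends on the length used. With no division by length the ratio without IGFBP1 was 0.0960, 0.114 and 0.122 in siControl and 0.365, 0.475 and 0.491 in siDGUOK, and with IGFBP1 it was 0.736 ± 0.0696 and 1.22 ± 0.120, so whether IGFBP2 to IGFBP6 together reached the level of IGF2 in siDGUOK depends on the scaling. The uncertainty of the IGF2 count applies to both ratios.

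**Figure D4:**
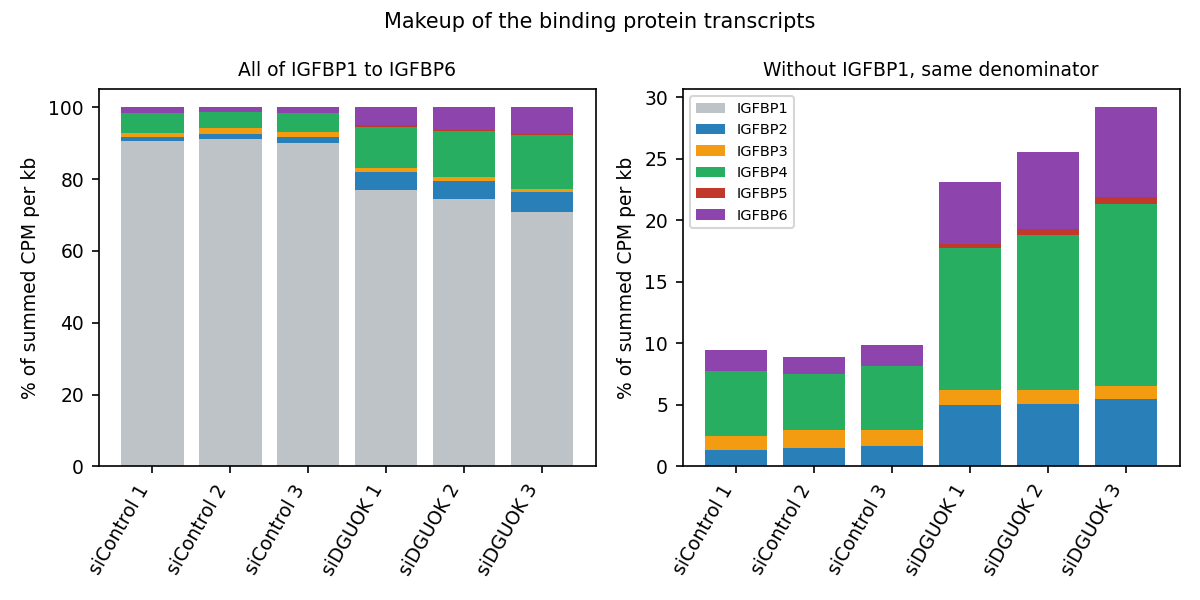
Share of each gene in the summed CPM per kb of IGFBP1 to IGFBP6, 1 bar for each of the 6 libraries, on the left with all 6 genes and on the right without the segment of IGFBP1 but with the same denominator. IGFBP1 takes 90.1% to 91.1% in siControl and 70.8% to 76.9% in siDGUOK, and the thin red segment is IGFBP5.

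Transcripts of other cell types moved with some of these libraries, and IGFBP5 is known to be made by fibroblasts and stellate cells. Of 10 fibroblast and stellate markers, in 11 rows since RGS5 has 2, 4 rows were tested, COL1A1 was called higher and PDGFRB lower, and THY1 had 0 counts. Their summed level was 45.5, 42.0 and 37.4 CPM in siControl and 71.8, 81.2 and 47.5 CPM in siDGUOK, and the most abundant, ACTA2, was not called at 26.2 to 32.0 CPM in siControl and 21.4 to 27.7 CPM in siDGUOK. COL1A1 had 9, 37 and 11 counts in siControl and 374, 336 and 379 counts in siDGUOK, a log2 fold change of 4.04 (SE 0.39), so it was raised to a similar level in all 3 siDGUOK libraries, at 20.2, 20.7 and 17.4 CPM. PDGFRB was lower in all 3, at −1.02 (SE 0.32). The summed counts of COL1A2, COL3A1, DCN and LUM, picked after their values were seen, were 14, 1 and 0 in siControl and 296, 469 and 9 in siDGUOK, and DESeq2 called COL3A1 and DCN as well. The markers thus did not move as 1 group, and their part in the IGFBP5 level was not tested.

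Of 6 endothelial markers, 3 were tested, and CLDN5 had 0 counts. Here edgeR called 0, although 2 passed 0.05 before adjustment, and DESeq2 called 1, KDR. Their sum was 1.66, 1.39 and 2.29 CPM in siControl and 4.48, 59.3 and 4.05 CPM in siDGUOK, and the most abundant, VWF, reached 31.4 CPM in siDGUOK replicate 2. That library therefore stood apart, and without it the log2 fold change of IGFBP5 was 5.52 and the number of members called stayed at 5. Of 6 leukocyte markers edgeR called 0, of which 0 passed 0.05 before adjustment, and DESeq2 also called 0. Their sum of 1614 to 1705 CPM in siControl and 1758 to 1902 CPM in siDGUOK was nearly all LYZ, at 1610 to 1700 and 1746 to 1896 CPM. The sum thus says little of the other leukocyte markers. PTPRC had 9, 55 and 2 counts in siControl and 37, 129 and 58 in siDGUOK, and CD3E had 15, 10 and 9 against 20, 59 and 0. CD14 had 18, 35 and 29 counts against 16, 0 and 24. Of the 6 leukocyte log2 fold changes, 4 were above 0 and 2 below. Beyond these values, the part of other cell types in the members' differences was not tested.

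The rest of the pathway was read from lists of 81 other genes, of which 67 were tested. edgeR called 8 of them higher and 6 lower, that is 20.9% against 14.1% of all genes tested, and their median log2 fold change was −0.02 against 0.02. The lists were chosen with earlier results of these data known, so nothing is read from this difference in share. For the same reason, the adjusted p-values printed for genes of these lists are a description. Among the other ligands and receptors, IGF1 had 0, 0 and 0 counts in siControl and 13, 0 and 0 counts in siDGUOK, and the growth hormone receptor gene GHR had 0 counts in all 6 libraries, where 3 counts would be 0.138 to 0.286 CPM. INSR, the insulin receptor gene, stood at 79.2, 79.0 and 86.0 CPM in siControl and at 41.3, 43.3 and 38.0 CPM in siDGUOK. All siDGUOK libraries were below all siControl libraries, with a log2 fold change of −0.99 (SE 0.12, adjusted p = 7.16e-06 from edgeR).

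Of 10 genes of secreted proteins related to the binding proteins, 5 were tested, 1 was called higher and 2 lower. IGFBP7, a low-affinity relative found in matrix and vessels, was higher at 0.64 (SE 0.10) on the log2 scale, lying at 88.5 to 93.9 CPM in siControl and 126 to 157 CPM in siDGUOK. CTGF, a matrix-associated growth regulator, was lower at −0.93 (SE 0.09), and KAZALD1 was lower at −1.38 (SE 0.30). Among 9 genes of proteases that cut binding proteins and of their inhibitors, 6 were tested and 1 was called. This was STC1, a secreted inhibitor of pappalysins, with 5, 12 and 0 counts in siControl and 33, 42 and 108 counts in siDGUOK. Its log2 fold change was 3.26 (SE 1.06, adjusted p = 0.0360 from edgeR, higher in all 3 siDGUOK libraries), and the call was lost in 6 of 11 alternatives, namely the replicate block and 5 of the 6 fits without 1 library, where the difference still ran from 2.76 to 3.53. Without siControl replicate 2 it was 4.29 and the call was kept. HTRA1, a protease of IGFBP5, had 0, 0 and 8 counts in siControl and 34, 106 and 22 counts in siDGUOK; edgeR did not call it, and DESeq2 did. PAPPA itself, which cuts IGFBP4 and IGFBP5, had 14 to 25 counts in siControl and 12 to 19 in siDGUOK and was not called. In CPM it ran from 1.18 to 1.33 in siControl and from 0.739 to 1.03 in siDGUOK, without overlap, at −0.59 (SE 1.09) on the log2 scale. PAPPA2 had 0, 0 and 0 counts in siControl and 7, 7 and 22 in siDGUOK, and was not tested.

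Among 13 receptor adaptors and phosphatases, 12 were tested, 3 were called higher and 1 lower. GRB10, an adaptor that restrains insulin and IGF1 receptor signalling, rose from 35.9, 34.5 and 24.5 CPM to 120, 104 and 110 CPM, a log2 fold change of 1.81 (SE 0.14, adjusted p = 2.93e-08 from edgeR). GRB14, its relative, fell by 1.37 on the log2 scale (SE 0.35), a call lost without siControl replicate 2, where the difference was −1.05. SHC1, which links receptors to the Ras pathway, rose from 128 to 138 CPM in siControl to 275 to 315 CPM in siDGUOK, at 1.18 (SE 0.08). SOCS2, a feedback inhibitor of growth hormone signalling, was called higher at 1.00 (SE 0.26), and lost the call without siDGUOK replicate 1, where it was 0.84. IRS1 was not called, at −0.24 (SE 0.15).

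Of 28 genes of PI3K, AKT and mTOR signalling, 27 were tested, 1 was called higher and 1 lower, and their median log2 fold change was −0.01. EIF4EBP1, a translation repressor that mTOR switches off, was higher at 0.74 (SE 0.13), and PHLPP1, an AKT phosphatase, was lower at −0.99 (SE 0.23). AKT1 at 0.25 and AKT2 at −0.32 passed the adjusted p but not the fold threshold. Of 8 hepatic genes known to be held down by insulin through FOXO1, 6 were tested, 1 was called higher and 2 lower. G6PC, the last enzyme of glucose release, was lower at −2.01 (SE 0.49), which ran from −2.90 without siDGUOK replicate 2 to −1.57 without siDGUOK replicate 3, called in both. INSR, which is also in this list, was lower at −0.99, while SESN3 was higher at 1.42 (SE 0.40). The call of SESN3 was lost without siControl replicate 1, at 1.25, and without siDGUOK replicate 3, at 1.06.

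The 3 genes of IGF2 mRNA-binding proteins were all tested and edgeR called 0, with 2 under 0.05 before adjustment, and DESeq2 also called 0. IGF2BP1 at 0.40 (SE 0.09) and IGF2BP2 at −0.30 (SE 0.09) passed the adjusted p but not the fold threshold. Of 8 genes that partner IGF2R in mannose 6-phosphate sorting and at the cell surface, all were tested and 1 was called. PLAUR, the urokinase receptor gene, whose product binds IGF2R, stood at 4.38, 1.12 and 4.29 CPM in siControl and at 11.1, 12.4 and 19.9 CPM in siDGUOK. It was above every siControl library in all 3, at 2.17 (SE 0.42, adjusted p = 0.00104 from edgeR). The sorting genes themselves, M6PR to GGA3, lay between −0.34 and 0.23; edgeR called 0, with 0 under 0.05 before adjustment, and DESeq2 also called 0.

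**Figure D5:**
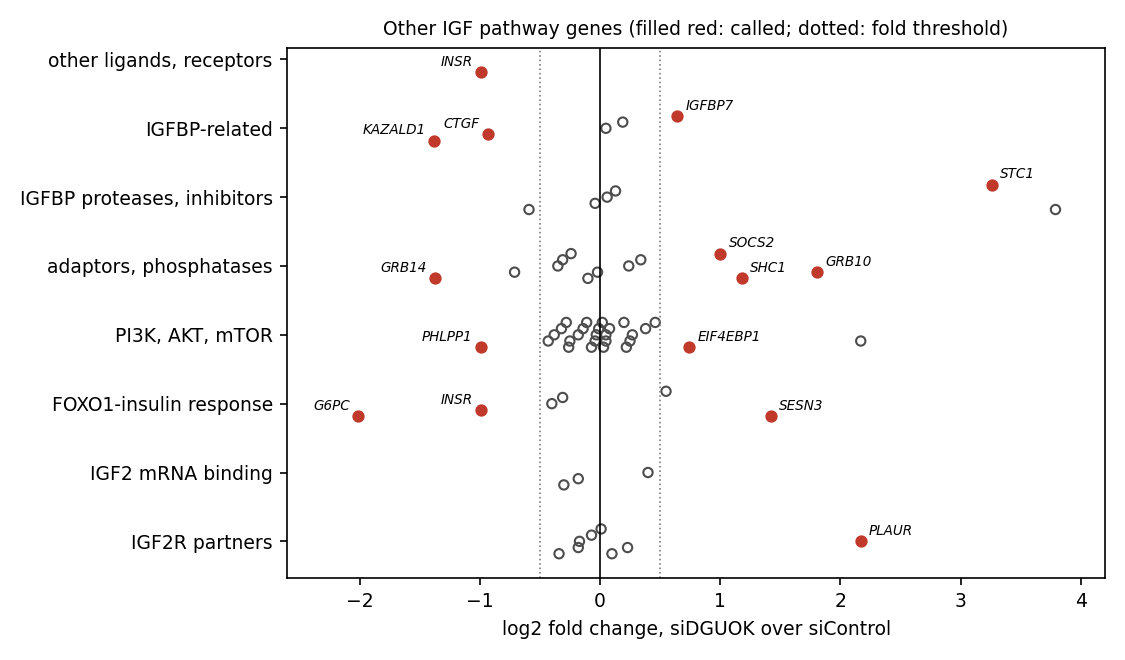
Log2 fold change, siDGUOK over siControl, of the tested genes of each pathway list, 1 circle a gene, with called genes filled red and named and dotted lines at the fold threshold of 0.5. INSR appears in 2 lists, and the 14 called genes fall on both sides of 0, from −2.01 for G6PC to 3.26 for STC1.

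The genes whose pattern over the 6 libraries was nearest to that of IGFBP5 were sought among the 9226 tested genes whose mean reached 10 CPM, by the root mean square difference of log2 CPM after each gene was centred on its siControl mean. They were LAIR2, a soluble collagen receptor, with a difference of 0.75, MYEOV with 0.86 and IL11, a cytokine of the IL6 family, with 0.95. LAIR2 stood at 4.86, 6.34 and 6.48 CPM in siControl and at 104, 155 and 161 CPM in siDGUOK. IL11 went from 8.81, 5.65 and 13.8 CPM to 182, 212 and 235 CPM, and MYEOV from 0.855, 1.86 and 2.00 CPM to 34.7, 32.1 and 33.8 CPM. All 3 were low in each siControl library and high in each siDGUOK library, which is the pattern they were selected on.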

How the data were processed

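RNA of 3 siControl and 3 siDGUOK HepG2 samples, labelled poly(A), was read as paired ends; their protocol does not settle whether rRNA depletion was used instead or whether the kit was stranded. From these reads the authors took out tRNA, rRNA, adapter and spike-in sequence, mapped the remainder to GRCh38 by STAR 2.6.1, discarded low-complexity reads, counted by featureCounts 1.6.5 with its defaults plus a quality cutoff of Phred above 10, on Gencode 27 genes, and deposited the raw count of each gene. With those defaults strand is not used, and reads with more than 1 alignment or gene are dropped, so counts of overlapping genes are uncertain. Replicates of a group were not copies of 1 library, since chi-square over its degrees of freedom was 10.67 to 25.69 for each pair.

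In R 4.3.3, edgeR 4.0.16 filtered the counts (filterByExpr, minimum count 10), which left 14476 of 24670 genes with a count, applied TMM and fitted condition alone by robust quasi-likelihood, with Benjamini-Hochberg adjustment over all genes tested. The SE is the absolute log2 fold change over the square root of F. Coordinates and merged exon lengths came from Gencode 44, on the same genome build but a later annotation than the counts, so lengths may differ from those counted on. Promoters came from RefSeq. The edgeR and DESeq2 fits were tested on simulated counts. The members and gene lists were chosen with earlier results of these data known.

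The genes named are the 10 members, DGUOK, the called genes of each list (at most 6 by absolute log2 fold change), the most abundant gene of each marker list and the 3 nearest to IGFBP5. Other genes named from the lists or near IGFBP5 were picked with their values known. The values of 1 hepatocyte marker are not reported here. The alternatives tried were DESeq2 1.42.0, plain or with apeglm 1.24.0 shrinkage, RLE normalization, no count filter, a replicate block, other fold thresholds, each library left out in turn, and other length scalings.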

Additional observations from a re-analysis of the deposited data

How the results depend on the processing

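Across DESeq2 with and without shrinkage, RLE normalization and no count filter, 5 members were called each time, and IGFBP5 ran from 5.48 to 5.51 on the log2 scale. Without 1 library, 5 to 6 members, 12 to 14 pathway list genes and 1704 to 1935 of all genes were called, IGFBP5 ran from 5.26 to 6.02, and its share of the binding protein transcripts in siDGUOK ran from 0.408% to 0.492%. Of the 10 members, 9 kept their side of the thresholds in all 11 alternative fits; IGF2 passed them in 2. At an absolute log2 fold change above 1, fewer genes can be called: 819 of all genes, 8 pathway list genes and 4 members. At the adjusted p alone, 6 members, 18 pathway list genes and 2847 of all genes passed. With no division by length the IGFBP5 share was 1.52%, since its exons are the longest of the 6; per canonical transcript, a scaling chosen after seeing the data, it was 0.382%. With replicate number as a replicate block, 2077 of all genes, 13 pathway list genes and 5 members were called and IGFBP5 was at 5.52. The numbers did not pair the samples: deviations from the group means correlated at 0.024, 0.017 and −0.002 across genes. RLE normalization and DESeq2 moved the median log2 fold change by −0.008 and −0.009. Depth limits STC1 and the siControl level of IGFBP5, which rest on few counts, and IGFALS varied widely between libraries.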
